A study of Homo sapiens with 18 samples.

Results

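Glucose uptake and glycolysis are represented here by 10 genes, namely SLC2A1, HK2, PFKFB3, PFKFB4, PFKP, ALDOA, ALDOC, PGK1, ENO2 and LDHA. They were taken by symbol from the 23411 symbols of each count file, all 10 were found, and all 10 passed the filter on low counts in every comparison, with 124 to 49945 reads per gene and sample. mRNA had been sequenced from 18 samples of ARPE-19 cells, a human retinal pigment epithelium line that arose spontaneously in culture. The lines, control and NRF2 ΔC, each received Milli-Q water (untreated), 0.2 mM H2O2 or 1 mM NACET, the ethyl ester of N-acetylcysteine, which made 6 groups of 3 samples. All cells carried a lentiviral Cas9 vector. In the control cells the vector lacked a gRNA, whereas NRF2 ΔC cells were 1 clone whose vector targeted exon 5 of NFE2L2, the gene for NRF2, so that clone and edit cannot be told apart. The labels of the series state 8 h of treatment after 40 h in medium with 10 % serum, those of the samples state 2 h after 22 h in 1 % serum, and both give the same lines and doses. Nothing states whether the replicates were separate cultures, so p-values measure the spread between these samples.

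Glycolysis splits glucose into pyruvate in the cytosol and yields ATP without oxygen. Transporters of the GLUT family bring glucose in, hexokinase traps it as a phosphate, phosphofructokinase sets the pace under the control of fructose 2,6-bisphosphate, and lactate dehydrogenase turns pyruvate into lactate while restoring NAD+. Several steps have more than one enzyme form, of which HK2, PFKFB3, PFKFB4, ALDOC, ENO2 and LDHA are known as forms that rise in hypoxia through hypoxia-inducible factors (HIF). The retinal pigment epithelium passes glucose from the blood to the photoreceptors, which use much of it for glycolysis.

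The members are spread over 9 chromosomes (GRCh37). SLC2A1, the GLUT1 glucose transporter, lies at chr1:43391024-43424564 on the minus strand, and HK2, hexokinase 2, at chr2:75061254-75120486. PFKFB3 (chr10:6186897-6296607) and PFKFB4 (chr3:48555117-48599448, minus strand) make and remove fructose 2,6-bisphosphate, and PFKP, the platelet form of phosphofructokinase, lies at chr10:3108525-3179910. The aldolases are ALDOA (chr16:30075485-30081778) and ALDOC (chr17:26900133-26903966, minus strand). PGK1, phosphoglycerate kinase, is at chrX:77166236-77384792, ENO2, the neuron-type enolase, at chr12:7022909-7032861 and LDHA, the A subunit of lactate dehydrogenase, at chr11:18416107-18429972.

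For each gene symbol 1 RefSeq promoter was used (GRCh38.p14, 250 bases before to 50 bases after the start). Where several were listed, it was the one at the lowest coordinate, and other start sites were not searched. These promoters were searched for ACGTG, the core of the hypoxia response element, on both strands. It was found in 6 of the 10 members (60.0 %), namely HK2, ALDOA, ALDOC, PGK1, ENO2 and LDHA, and in 5832 of all 27305 promoters (21.4 %). TGACNNNGC, the core of the antioxidant response element that NRF2 binds, was found in 1 of 10 (10.0 %), ALDOC, and in 13.5 % of all promoters. TGATGNAA, an element bound by CEBP and ATF factors, was in 0 of 10 and in 3.8 % of all. CACGTG, the E box, which contains ACGTG on both strands, was in 2 of 10 (20.0 %), ALDOC and LDHA, and in 7.3 % of all. A match describes these letters only and is not a binding site. The 4 promoters printed here, 5′ to 3′ along the gene, show LDHA, PGK1 and ENO2, later steps of the pathway with a match, beside PFKFB4, which had the largest fitted change with H2O2 among the members and no match. Capitals mark ACGTG or its reverse complement CACGT. LDHA (chr11:18394313-18394612, plus strand) held 5 matches, PGK1 (chrX:78103998-78104297, plus strand) 3, ENO2 (chr12:6914330-6914629, plus strand) 1 and PFKFB4 (chr3:48556754-48557053, minus strand) 0, where a CACGTG counts once on each strand.
LDHA: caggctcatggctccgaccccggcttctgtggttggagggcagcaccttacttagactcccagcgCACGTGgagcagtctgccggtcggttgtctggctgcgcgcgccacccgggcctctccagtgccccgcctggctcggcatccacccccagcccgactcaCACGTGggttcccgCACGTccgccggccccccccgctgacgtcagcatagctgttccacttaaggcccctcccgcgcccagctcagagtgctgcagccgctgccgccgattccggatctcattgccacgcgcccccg
PGK1: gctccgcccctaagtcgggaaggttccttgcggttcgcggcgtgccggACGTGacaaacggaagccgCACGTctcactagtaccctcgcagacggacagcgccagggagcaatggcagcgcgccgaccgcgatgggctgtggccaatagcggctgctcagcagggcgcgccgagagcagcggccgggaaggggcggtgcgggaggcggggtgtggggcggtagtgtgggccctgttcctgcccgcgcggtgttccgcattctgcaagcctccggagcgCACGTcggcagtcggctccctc
ENO2: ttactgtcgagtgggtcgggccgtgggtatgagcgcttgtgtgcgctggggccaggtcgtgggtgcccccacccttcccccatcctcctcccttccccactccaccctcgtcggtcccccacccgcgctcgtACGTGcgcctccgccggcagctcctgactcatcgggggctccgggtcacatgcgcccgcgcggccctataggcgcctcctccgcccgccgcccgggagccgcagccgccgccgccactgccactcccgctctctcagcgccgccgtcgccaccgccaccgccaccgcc
PFKFB4: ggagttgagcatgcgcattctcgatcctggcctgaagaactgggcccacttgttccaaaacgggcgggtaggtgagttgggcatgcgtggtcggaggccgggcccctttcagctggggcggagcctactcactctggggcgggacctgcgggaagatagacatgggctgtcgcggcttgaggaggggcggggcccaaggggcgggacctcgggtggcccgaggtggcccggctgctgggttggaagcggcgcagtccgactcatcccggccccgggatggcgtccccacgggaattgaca

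Reads counted on genes numbered 16673306 to 25951154 per sample (median 21447433.5). The edited gene NFE2L2 was at 124 ± 2.44 CPM in untreated control and 126 ± 1.89 CPM in untreated NRF2 ΔC cells (SD, n = 3 each), a count over the whole gene that does not check the edit. Of 8 NRF2 targets that the study followed by RT-qPCR, 8 rose with NACET in control cells and 0 in NRF2 ΔC cells by edgeR's quasi-likelihood test (4 with an unadjusted p under 0.05, 1 called by DESeq2). Of 13 epithelium markers 9 reached 1 CPM, while RPE65, TTR, TYR and RLBP1 were near 0. All 6 photoreceptor and glia markers stayed under 1 CPM, and 4 of 7 fibroblast markers reached it.

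In untreated control cells, levels per kilobase of the canonical transcript were highest for ALDOA, at 1133 ± 38.2 CPM per kb, and for LDHA, at 852 ± 148 CPM per kb (SD, n = 3). SLC2A1 (450 ± 67.6) and PGK1 (394 ± 68.6) came next on this scale and overlapped, before PFKP (238 ± 13.2) and ENO2 (199.6 ± 21.6). PFKFB3 (55.5 ± 9.47) and ALDOC (40.2 ± 9.61) overlapped, as did PFKFB4 (18.9 ± 5.53) and HK2 (14.1 ± 1.31), the lowest of the members. The order in untreated NRF2 ΔC cells was the same down to PFKFB3 (51.7 ± 12.3 CPM per kb). HK2 (19.4 ± 1.95), PFKFB4 (18.9 ± 9.41) and ALDOC (12.6 ± 7.67) followed there, each overlapping with its neighbour, so that ALDOC was the lowest member in the clone. PGK1, LDHA, ENO1 and GAPDH have processed pseudogene copies elsewhere in the genome, and since reads mapping to several places were not counted, their levels are uncertain.

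**Figure D1:**
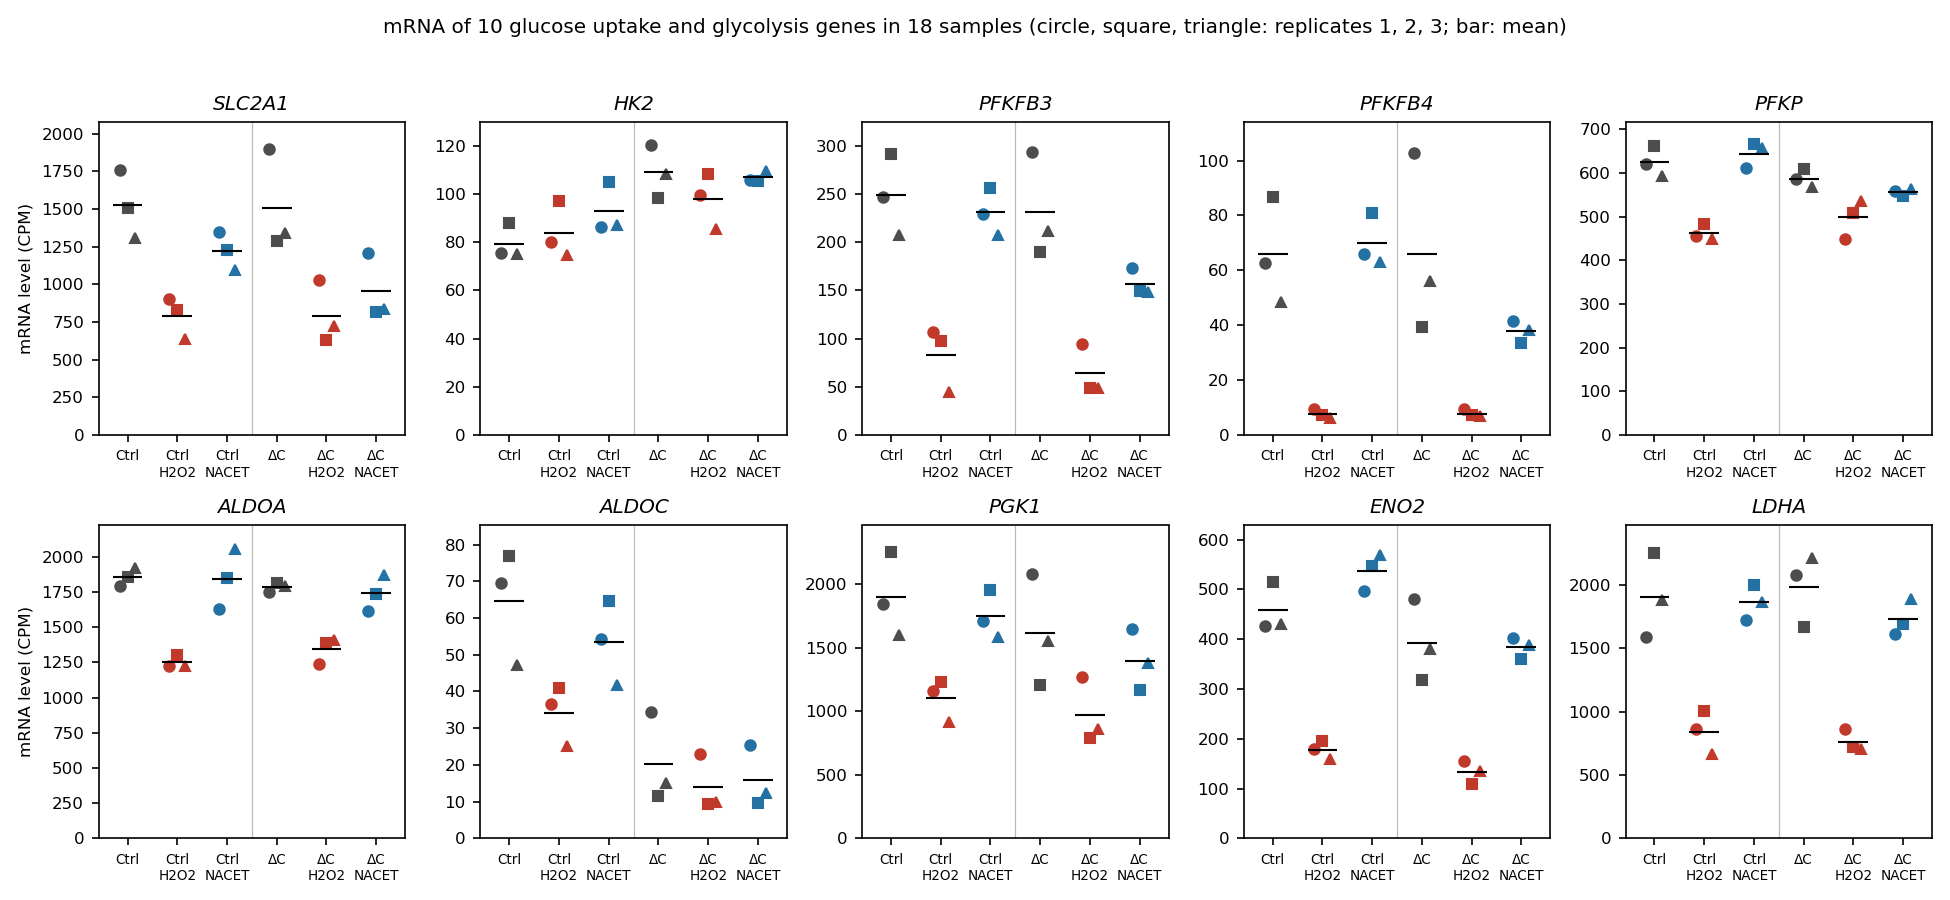
mRNA level (CPM, linear axis from 0) of each member in the 18 samples. Each symbol is 1 sample (circle, square and triangle for replicates 1, 2 and 3), bars are means of 3, and grey, red and blue stand for untreated, H2O2 and NACET. With H2O2, PFKFB4 lies between 6.08 and 9.31 CPM in both lines against 39.3 to 103 CPM untreated, while HK2 stays between 74.9 and 120 CPM in all samples.

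The question of how an oxidant affects these genes was addressed by comparing H2O2-treated with untreated cells in each line. In control cells 7 of the 10 members fell (SLC2A1, PFKFB3, PFKFB4, ALDOC, PGK1, ENO2 and LDHA) and 0 rose, whereas of the 13691 genes tested 3.37 % fell and 2.96 % rose. Here a gene was called, and said to fall or rise, when its adjusted p-value in edgeR's quasi-likelihood test was under 0.05 and its log2 fold change at least 0.6 in size. The clone had 5 members that fell (SLC2A1, PFKFB3, PFKFB4, ENO2 and LDHA) and 0 that rose, whereas of 13543 genes 5.55 % fell and 4.26 % rose. The members' median log2 fold changes were -0.93 (control) and -0.86 (NRF2 ΔC), beside -0.0038 and -0.0086 for all genes tested. Treated and untreated samples did not overlap for 9 members in control cells, all lower with H2O2, against 17.0 % of all genes, and for 7 in NRF2 ΔC cells against 15.7 %. In control cells 3 calls were left without H2O2 replicate 2 and 4 without untreated replicate 2.

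SLC2A1, which lets glucose into the cell, was at 1762, 1503 and 1306 CPM in the 3 untreated control samples and at 903, 830 and 639 CPM with H2O2. The NRF2 ΔC samples were at 1896, 1284 and 1341 CPM untreated and at 1026, 627 and 723 CPM with H2O2. Every treated sample was below every untreated sample of its line. The log2 fold changes were -0.94 (standard error 0.16, adjusted p = 0.0109, edgeR's quasi-likelihood test), or 1.92-fold lower, in control cells and -0.95 (0.22, adjusted p = 0.0284) in NRF2 ΔC cells. The call in control cells was lost without H2O2 replicate 2 (adjusted p = 0.0573), and that in NRF2 ΔC cells without any of untreated replicates 1 (0.0527), 2 (0.0684) and 3 (0.0640) or H2O2 replicates 2 (0.134) and 3 (0.0995).

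HK2, the hexokinase form bound to mitochondria in many growing cells, did not follow the other members. It was at 75.4, 88.0 and 75.1 CPM in untreated control cells and at 80.3, 97.1 and 74.9 CPM with H2O2, and at 120, 98.5 and 108 CPM in untreated and 99.6, 108 and 85.5 CPM in H2O2-treated NRF2 ΔC cells. The groups overlapped in both lines. The log2 fold changes with H2O2 were 0.08 (standard error 0.12, adjusted p = 0.676, edgeR's quasi-likelihood test) and -0.18 (0.14, adjusted p = 0.414). HK1, the hexokinase of most tissues, fell from 292 ± 23.3 to 175 ± 9.87 CPM in control cells (log2 fold change -0.74) and from 280 ± 16.2 to 178 ± 14.9 CPM in NRF2 ΔC cells (-0.68), so the read ratio of HK2 to HK1 was higher with H2O2. HKDC1, a further gene of the hexokinase family, had values in the opposite direction. It was at 262 ± 27.1 CPM untreated and 368 ± 52.5 CPM with H2O2 in control cells (log2 fold change 0.49, adjusted p = 0.0385, under the fold limit) and rose from 222 ± 8.15 to 497 ± 7.90 CPM in the clone (1.14, adjusted p = 0.00228). The difference between the lines was not called (-0.66, standard error 0.17, adjusted p = 0.321, edgeR's quasi-likelihood test).

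The largest changes were in the enzymes that set fructose 2,6-bisphosphate, the activator of phosphofructokinase. PFKFB4 was at 62.7, 86.9 and 48.6 CPM in untreated control cells and at 9.31, 7.38 and 6.08 CPM with H2O2. The NRF2 ΔC samples had 103, 39.3 and 55.9 CPM untreated and 9.25, 7.13 and 6.79 CPM with H2O2. The 6 treated samples lay in a narrow band far below all 6 untreated samples. PFKFB4 fell 8.73-fold in control cells (log2 fold change -3.13, standard error 0.24, adjusted p = 0.000954, edgeR's quasi-likelihood test), the lowest value among the 13691 genes tested. In NRF2 ΔC cells it fell 8.70-fold (-3.12, 0.34, adjusted p = 0.00248) and ranked 4 from the lowest of 13543 genes.

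PFKFB3, the family member whose kinase activity is the strongest, was at 247, 292 and 207 CPM in untreated control cells and at 107, 97.6 and 44.9 CPM with H2O2. Levels in NRF2 ΔC cells were 294, 189 and 212 CPM untreated and 94.7, 48.5 and 49.0 CPM with H2O2. The treated groups lay below the untreated groups without overlap, although H2O2 replicate 3 in control cells and H2O2 replicate 1 in NRF2 ΔC cells stood apart from the other two of their groups. PFKFB3 fell 3.00-fold in control cells (log2 fold change -1.58, standard error 0.29, adjusted p = 0.0134, edgeR's quasi-likelihood test) and 3.69-fold in NRF2 ΔC cells (-1.88, 0.28, adjusted p = 0.00649). In control cells the call was lost without untreated replicate 2 (adjusted p = 0.0537) or H2O2 replicate 2 (0.0556). PFKFB2, the heart form of the same enzyme, was at 49.0 ± 2.41 CPM untreated and 54.9 ± 5.90 CPM with H2O2 in control cells and passed the test in neither line (log2 fold changes 0.17 and 0.02). PFKP was at 621, 662 and 593 CPM against 456, 483 and 450 CPM in control cells, which did not overlap, with a log2 fold change of -0.43 (adjusted p = 0.0222) under the fold limit. Its change in the clone was -0.26 (adjusted p = 0.223).

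The aldolases split the sugar phosphate into its trioses. ALDOA, the main form in most tissues, was at 1795, 1858 and 1920 CPM in untreated and 1227, 1300 and 1223 CPM in H2O2-treated control cells, without overlap, and its log2 change of -0.57 (standard error 0.10, adjusted p = 0.0107, edgeR's quasi-likelihood test) stayed under the fold limit. The value in the clone was -0.43 (adjusted p = 0.0621). ALDOC, the brain form, was at 69.6, 77.0 and 47.3 CPM in untreated and at 36.6, 40.9 and 25.1 CPM in H2O2-treated control cells, all lower than untreated. It fell 1.89-fold there (log2 fold change -0.92, standard error 0.22, adjusted p = 0.0310). That call was lost in 1 fit of all 18 samples (adjusted p = 0.175) and without untreated replicate 1 (0.0772) or 2 (0.102) or H2O2 replicate 1 (0.0669), 2 (0.0769) or 3 (0.0564). The clone had ALDOC at 34.4, 11.5 and 15.0 CPM untreated and at 22.9, 9.23 and 9.90 CPM with H2O2, which overlapped (log2 fold change -0.56, adjusted p = 0.433), with replicate 1 above the other two in both groups.

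PGK1, which makes the first ATP of the pathway, was at 1844, 2251 and 1597 CPM in untreated control cells and at 1161, 1234 and 914 CPM with H2O2, without overlap. It fell 1.72-fold (log2 fold change -0.78, standard error 0.16, adjusted p = 0.0210, edgeR's quasi-likelihood test), a call lost without untreated replicate 2 (adjusted p = 0.0701) or H2O2 replicate 1 (0.0540) or 2 (0.0692). In NRF2 ΔC cells it was at 2084, 1208 and 1557 CPM untreated and at 1267, 791 and 861 CPM with H2O2, where the highest treated sample exceeded the lowest untreated one. The change there was of like size (-0.76, standard error 0.24) and not called (adjusted p = 0.0728). Within a line, samples of equal replicate number shared their deviations. A fit that blocked on this number called PGK1 in the clone as well (log2 fold change -0.75, adjusted p = 1.93e-09, with 11.5 % of all genes called lower), as did DESeq2 (adjusted p = 0.0204), 1 fit of all samples (0.0193) and the fit without H2O2 replicate 1 (0.0108). With H2O2 in the clone, PFKP (-0.26, adjusted p = 0.0266), ALDOA (-0.44, 0.000352) and ALDOC (-0.54, 0.000361) passed edgeR's quasi-likelihood test in the blocked fit. All stayed under the fold limit.

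ENO2, the enolase best known from neurons, was at 427, 515 and 431 CPM in untreated control cells and at 179, 195 and 160 CPM with H2O2. In the clone it was at 480, 317 and 380 CPM untreated and at 155, 108 and 134 CPM with H2O2. No treated sample came near the untreated ones. ENO2 fell 2.57-fold (log2 fold change -1.36, standard error 0.12, adjusted p = 0.00108, edgeR's quasi-likelihood test) and 3.01-fold (-1.59, 0.20, adjusted p = 0.00358) in the control and NRF2 ΔC cells. Its widespread form ENO1 was at 4381 ± 281 CPM untreated and 2993 ± 135 CPM with H2O2 in control cells. The log2 fold change of ENO1 was -0.55 in control cells (adjusted p = 0.0201, under the fold limit) and -0.38 in NRF2 ΔC cells (adjusted p = 0.119). Neither was called.

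LDHA, whose subunit favours the making of lactate, was at 1592, 2253 and 1884 CPM in untreated control cells and at 860, 1004 and 666 CPM with H2O2. Its levels in the clone were 2082, 1670 and 2212 CPM untreated and 861, 718 and 709 CPM with H2O2. All treated samples were below all untreated samples. LDHA fell 2.26-fold in control cells (log2 fold change -1.18, standard error 0.18, adjusted p = 0.00729, edgeR's quasi-likelihood test) and 2.65-fold in NRF2 ΔC cells (-1.41, 0.16, adjusted p = 0.00270). LDHB, the subunit of the heart form, was not called (log2 fold changes 0.19 and 0.17). The calls of PFKFB4, ENO2 and LDHA with H2O2 were made in both lines under each of the 7 other settings and without each of the 6 samples in turn.

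**Figure D2:**
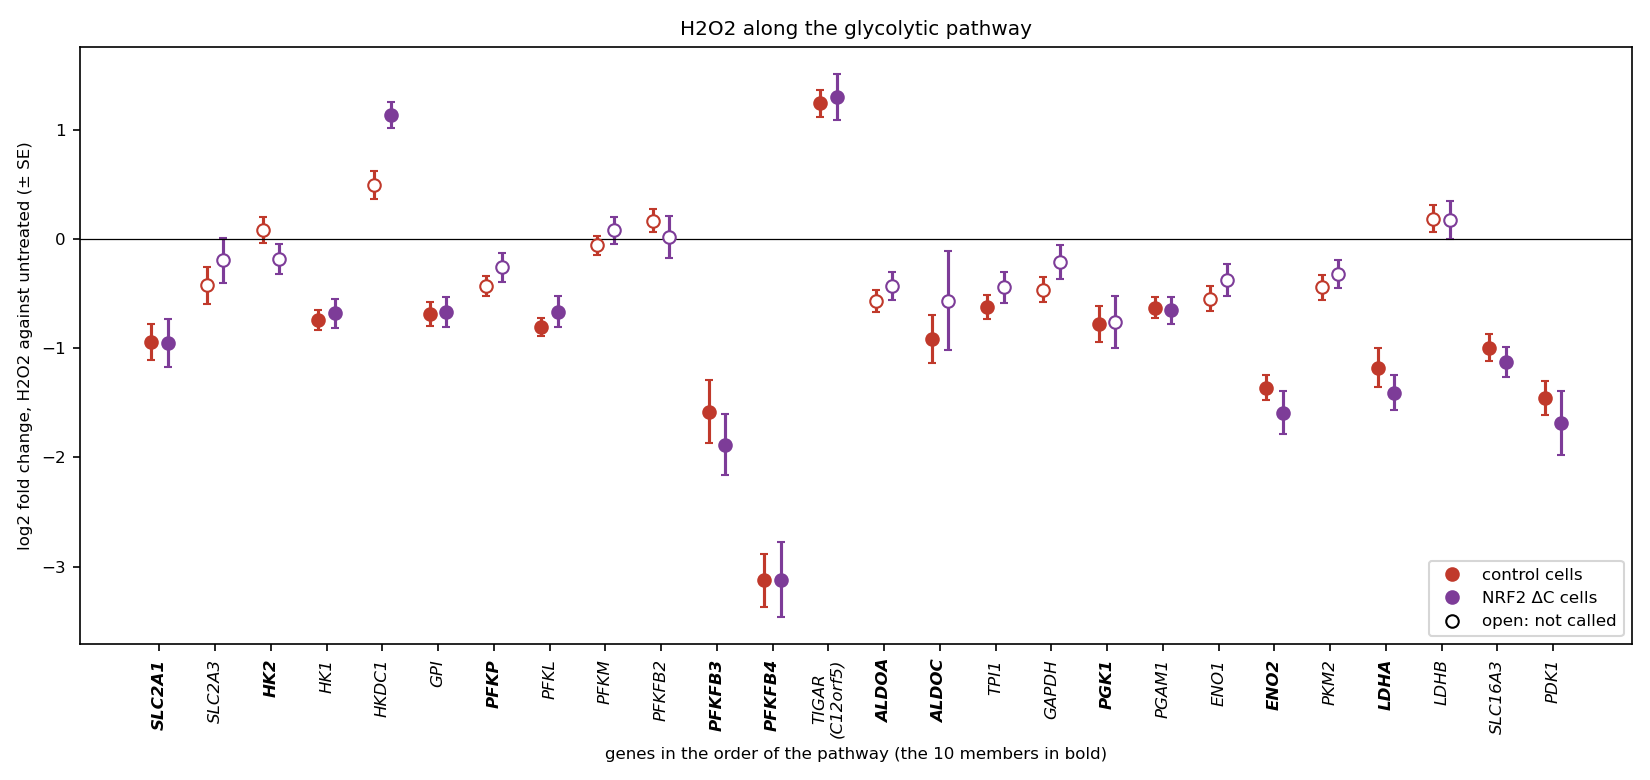
Fitted log2 fold change with H2O2 (points, bars ± standard error of the fit on 3 + 3 samples) for genes in the order of the pathway, in control (red) and NRF2 ΔC cells (purple). Filled points were called, open points were not, and the members are in bold. The lowest points in both lines are those of PFKFB4 (-3.13 and -3.12), and TIGAR is above 0 in both (1.24 and 1.30).

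Whether H2O2 acted differently in the lines was tested as the interaction over 12 samples. It was called for 0 of the 10 members, against 0.0214 % of 13987 genes, and 0 members had an unadjusted p-value under 0.05 in edgeR's quasi-likelihood test. DESeq2 also called 0. The difference in log2 fold change between the lines (control minus NRF2 ΔC) ranged from -0.37 for ALDOC (standard error 0.57) to 0.28 for PFKFB3 (0.45), and it was -0.02 for PFKFB4 (0.45), -0.01 for SLC2A1 (0.29), 0.21 for ENO2 (0.23) and 0.21 for LDHA (0.25). With these errors, differences of this size were not detectable in that fit. Blocking on replicate number within each line gave smaller standard errors. They were 0.13 for ALDOC, 0.18 for PFKFB3, 0.23 for PFKFB4, 0.099 for SLC2A1, 0.099 for ENO2 and 0.14 for LDHA. ALDOC came to -0.39 there (adjusted p = 0.0683, edgeR's quasi-likelihood test). No member was called in the blocked fit, against 967 of 13987 genes.

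As a share of all reads on genes, the 10 members made up 0.860 ± 0.0755 % in untreated and 0.494 ± 0.0524 % in H2O2-treated control cells (SD, n = 3). The corresponding shares in NRF2 ΔC cells were 0.819 ± 0.0970 % and 0.462 ± 0.0489 %. The groups did not overlap in either line. A two-sided exact permutation test gave p = 0.1 in both (0.2 after adjustment over 4 comparisons), the smallest that 3 against 3 samples allow. Marker sums were also lower with H2O2, though not every marker fell. Of 9 epithelium markers tested, 1 was called lower and 1 higher in each line. Of 4 fibroblast markers tested, 0 were called in control cells, and 1 was called lower and 1 higher in NRF2 ΔC cells. The summed level of the 13 epithelium markers was 1357 to 1410 CPM in untreated and 970 to 1044 CPM in H2O2-treated control cells, with 1312 to 1433 and 977 to 1077 CPM for the clone. The 7 fibroblast markers summed to 6371 to 7327 and 4833 to 5841 CPM in control cells and to 7052 to 7378 and 5505 to 6708 CPM in NRF2 ΔC cells. The part of these shifts in the members' changes was not tested, and in bulk samples fewer cells of a kind and less RNA per cell cannot be told apart.

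Ratios of related genes within a library need no library size. The log2 ratio of LDHA to LDHB reads was 1.30, 1.56 and 1.18 in untreated control cells and 0.10, 0.28 and -0.47 with H2O2, and in NRF2 ΔC cells 1.64, 1.09 and 1.21 against 0.15, -0.42 and -0.51. Reads of the A subunit exceeded those of the B subunit in all untreated samples and in 3 of the 6 treated ones. For PFKFB3 to PFKFB2 the mean log2 ratio was 2.33 untreated and 0.50 with H2O2 in control cells, while the clone had 2.61 and 0.69. For PFKFB4 to PFKFB3 it went from -1.94 to -3.37 and from -1.90 to -2.99. For ENO2 to ENO1 the ratio was lower with H2O2 (log2 differences -0.81 and -1.20), and for SLC2A1 to SLC2A3, another glucose transporter, likewise (-0.53 and -0.79). The ratio was higher with H2O2 for HK2 to HK1 (log2 differences 0.82 and 0.50) and for PFKP to PFKL, the liver form (0.38 and 0.40). None of these 7 ratios overlapped between H2O2 and untreated samples in either line, whereas ALDOC to ALDOA overlapped in both (-0.35 and -0.09). NACET-treated and untreated control cells also did not overlap for some ratios, all higher with NACET. These were SLC2A1 to SLC2A3 (log2 difference 0.27), PFKFB3 to PFKFB2 (0.35), PFKP to PFKL (0.29) and ENO2 to ENO1 (0.29). The remaining ratios overlapped, as did all ratios between NACET-treated and untreated NRF2 ΔC cells. In the two-sided exact permutation test each non-overlapping ratio had p = 0.1, the smallest possible, and 0.190 after adjustment over 40 tests.

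**Figure D3:**
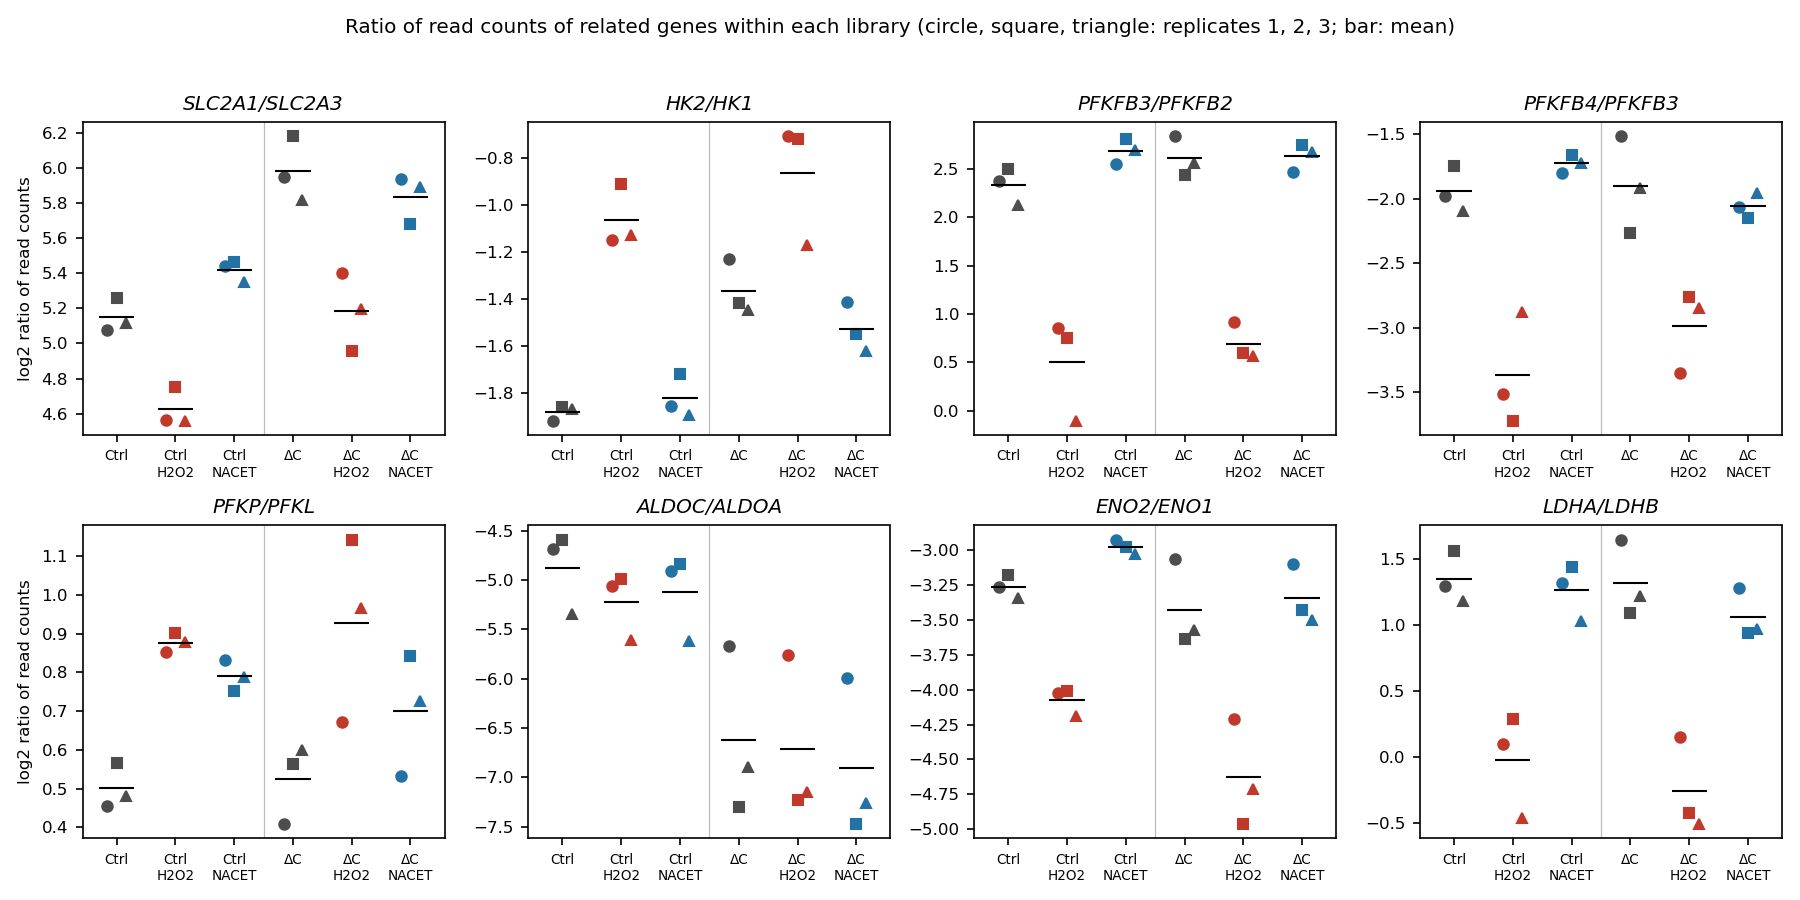
log2 ratio of read counts of related genes in each of the 18 libraries (circle, square and triangle for replicates 1, 2 and 3, bars for means of 3, colours as in the plot of levels by sample). Axes do not start at 0. In control cells LDHA/LDHB goes from a mean of 1.34 untreated to -0.03 with H2O2, and ALDOC/ALDOA is lower in untreated NRF2 ΔC than in untreated control cells (-6.62 against -4.87).

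Of 30 other genes of glucose transport and glycolysis in the files, 23 were tested. With H2O2, 6 fell and 1 rose in control cells, and 5 fell and 3 rose in NRF2 ΔC cells, with medians of -0.19 in both lines. Those that fell included GPI, the isomerase after hexokinase (log2 fold changes -0.69 and -0.67 for control and NRF2 ΔC cells), PFKL (-0.81 and -0.67), PGAM1, the mutase before enolase (-0.63 and -0.65), and SLC2A12, a minor glucose transporter (-0.80 and -1.08). TPI1, the triose isomerase, fell in control cells (-0.63) and was not called in NRF2 ΔC cells (-0.44). GAPDH (-0.46 and -0.21), pyruvate kinase (PKM2 in the files, -0.44 and -0.32) and PFKM (-0.06 and 0.08) were not called. In control cells GAPDH (adjusted p = 0.0337) and pyruvate kinase (0.0379) passed edgeR's quasi-likelihood test and were under the fold limit. TIGAR (C12orf5 in the files), a phosphatase that lowers fructose 2,6-bisphosphate and a p53 target, rose from 30.5 ± 4.65 to 72.0 ± 4.92 CPM in control cells (1.24, adjusted p = 0.00189 in edgeR's quasi-likelihood test) and also in NRF2 ΔC cells (1.30). HKDC1 and ENO3, the muscle enolase at 1.63 ± 0.371 CPM untreated and 3.59 ± 0.415 CPM with H2O2 (1.10), were the others that rose in the clone.

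Past pyruvate, 16 genes of lactate export and pyruvate entry into mitochondria were tested, and 4 fell and 0 rose in each line. PDK1, a kinase that shuts pyruvate dehydrogenase, had log2 fold changes of -1.46 (control) and -1.69 (NRF2 ΔC), and SLC16A3, the lactate exporter MCT4, had -0.995 and -1.12. PDK3, a kinase of the same family, had -0.91 and -1.30. Among 20 hypoxia genes outside glycolysis, 10 fell in control and 9 in NRF2 ΔC cells while 0 rose in either line, with medians of -0.72 in both. NDRG1, a stress and hypoxia marker, had -1.81 and -1.68, ANKRD37 -1.57 and -1.93, and BNIP3, a mitophagy receptor, -1.48 and -1.36. VEGFA, the vascular growth factor, was not called (0.08 and 0.36). Of 11 tested genes for HIF subunits and regulators, 0 were called in either line by edgeR's quasi-likelihood test. For 11 genes this is near the shares over all genes (3.37 % lower and 2.96 % higher in control cells, 5.55 % and 4.26 % in NRF2 ΔC cells). Of these 11, 2 had an unadjusted p under 0.05 in control cells and 0 in the clone, where DESeq2 called 1 (0 in control cells). Among them HIF1A, the HIF-1 alpha subunit, had log2 fold changes of 0.27 and 0.13. These counts are of mRNA and say nothing of HIF protein.

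**Figure D4:**
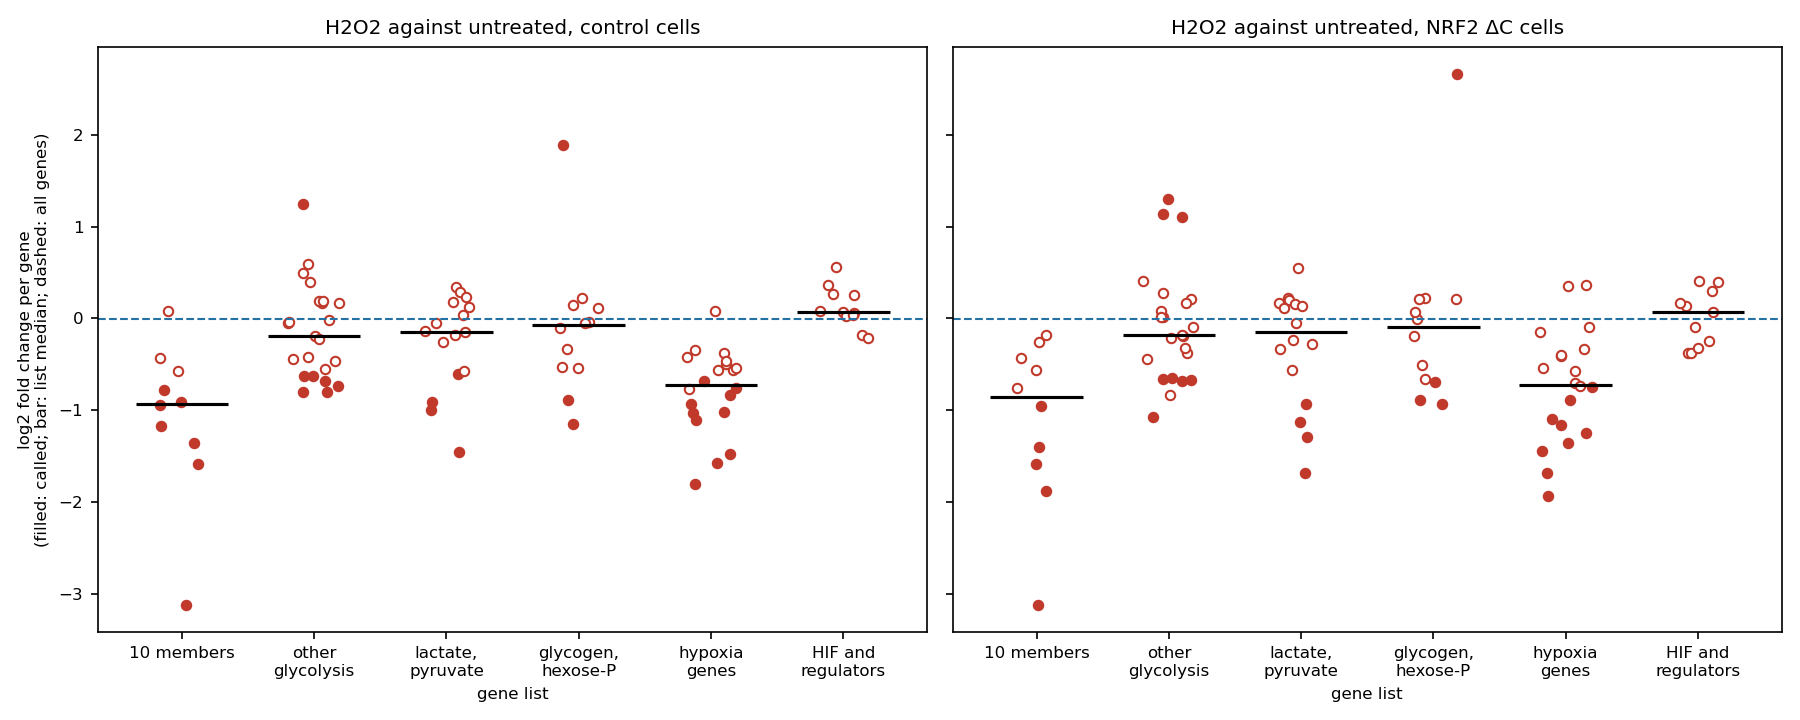
log2 fold change with H2O2 of each tested gene of 6 lists, in control (left) and NRF2 ΔC cells (right). Each point is 1 gene, filled where called, black bars are list medians, and the dashed line is the median of all genes tested. The medians are lowest for the members (-0.93 and -0.86) and the hypoxia genes outside glycolysis (-0.72 in both).

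NACET, a thiol donor that induced the NRF2 targets in control cells, was compared in the same way. The H2O2 and NACET comparisons of a line share its untreated samples. In control cells 0 of 10 members were called by edgeR's quasi-likelihood test, against 2.75 % of 13696 genes, 0 had an unadjusted p under 0.05, 0 were called by DESeq2, and for 0 did the groups not overlap, against 26.5 % of all genes. The log2 fold changes ran from -0.30 for SLC2A1 (standard error 0.15) to 0.24 for ENO2 (0.12). Between same-numbered samples, SLC2A1, ALDOC and PGK1 were lower and HK2 and ENO2 higher with NACET in 3 of 3 pairs. With replicate number blocked, the log2 fold changes of SLC2A1, ALDOC, HK2 and ENO2 were -0.30 (adjusted p = 7.22e-05), -0.25 (0.000739), 0.23 (0.000780) and 0.25 (0.000439). PGK1 had -0.10 in that fit (adjusted p = 0.276, edgeR's quasi-likelihood test). The other 4 were under the fold limit, so 0 members were called, against 7.49 % of all genes in that fit. PFKFB4 was at 66.0, 81.0 and 62.9 CPM with NACET, within the span of the untreated samples, and LDHA at 1723, 1999 and 1871 CPM likewise.

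In NRF2 ΔC cells all 10 members were fitted lower with NACET (median -0.22, all genes -0.0067), but 0 were called, against 1.39 % of 13542 genes. Unadjusted p-values were under 0.05 for 3 members, SLC2A1, PFKFB3 and PFKFB4. The groups did not overlap for 3 members, SLC2A1, PFKFB3 and PFKP, against 25.0 % of all genes. PFKP had a log2 fold change of -0.10 (standard error 0.10). SLC2A1 was at 1205, 818 and 838 CPM, below all untreated samples (log2 fold change -0.67, standard error 0.21, adjusted p = 0.146). PFKFB3 was at 173, 149 and 148 CPM, also below them (-0.58, 0.17, adjusted p = 0.134). PFKFB4 was at 41.3, 33.6 and 38.2 CPM, where untreated replicate 2 overlapped (-0.82, 0.31, adjusted p = 0.211). With replicate number blocked, which takes up the shared deviations of same-numbered samples, SLC2A1 (-0.68, adjusted p = 6.75e-07) and PFKFB4 (-0.73, adjusted p = 0.000429) were called. PFKFB3 (-0.56, adjusted p = 2.78e-05), ALDOC (-0.36, 0.00838), PGK1 (-0.20, 0.0291) and LDHA (-0.21, 0.0342) passed edgeR's quasi-likelihood test there and stayed under the fold limit. That fit called 8.82 % of all genes. SLC2A1 was also called by DESeq2 (adjusted p = 0.0380), which called 1 member in all, and without NACET replicate 1 (0.0425).

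The interaction of NACET and line was called for 0 of 10 members, against 0.0643 % of 14002 genes, and 0 had an unadjusted p under 0.05 in edgeR's quasi-likelihood test or were called by DESeq2. It was above 0 for all 10, meaning a lower fitted change in NRF2 ΔC cells, and largest for PFKFB4 (0.91, standard error 0.42), PFKFB3 (0.48, 0.24) and SLC2A1 (0.37, 0.27). With replicate number blocked within each line these 3 members were called, while the same fit called 0.9 % of all genes (0.86, adjusted p = 0.0394 for PFKFB4, 0.47, adjusted p = 0.0237 for PFKFB3 and 0.38, adjusted p = 0.0257 for SLC2A1).

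Set directly against NACET, H2O2 gave lower levels of 6 members in control cells (2.25 % of 13581 genes) and of 4 in NRF2 ΔC cells (5.09 % of 13489). PFKFB4 differed by -3.23 and -2.32 on the log2 scale, ENO2 by -1.62 and -1.56, PFKFB3 by -1.50 and -1.32, and LDHA by -1.17 and -1.21. SLC2A1 (-0.65, adjusted p = 0.0446) and PGK1 (-0.69, adjusted p = 0.0342, edgeR's quasi-likelihood test) were called in control cells. ALDOC joined them with replicate number blocked (-0.68, adjusted p = 2.16e-06, with 4.86 % of all genes called lower) and by DESeq2 (adjusted p = 0.0309). In 1 fit of all 18 samples SLC2A1 (adjusted p = 0.0892) and PGK1 (0.0755) lost their calls. These comparisons reuse the H2O2 samples described above. In control cells 3 calls were left without H2O2 replicate 2 or without NACET replicate 2. SLC2A1 (adjusted p from 0.0759 to 0.171) and PGK1 (from 0.0674 to 0.158) also lost their calls there without any 1 sample other than NACET replicate 3, and PFKFB3 without H2O2 replicate 2 (0.0832) or NACET replicate 1 (0.0519) or 2 (0.109). PFKFB3 in the clone lost its call without any 1 sample other than H2O2 replicate 1 (from 0.0513 to 0.0982), whereas PGK1 gained one without that sample (0.0252).

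The lines were compared within each treatment. Untreated, 0 of 10 members were called by edgeR's quasi-likelihood test, against 3.85 % of 13710 genes, 2 had an unadjusted p under 0.05, and for 2, ALDOC and HK2, the groups did not overlap, against 18.6 % of all genes. ALDOC was at 34.4, 11.5 and 15.0 CPM in NRF2 ΔC and at 69.6, 77.0 and 47.3 CPM in control cells, a log2 difference of -1.67 (standard error 0.39, adjusted p = 0.0517). DESeq2, which called 1 member, put it at adjusted p = 0.0301, the fit of all 18 samples at 0.0273, the fit with no filter on low counts at 0.0174, scaling by library size only at 0.0391 and the fit without control replicate 3 at 0.0365. Without NRF2 ΔC replicate 1 the difference was -2.29 (adjusted p = 0.000366). HK2 was at 120, 98.5 and 108 CPM in NRF2 ΔC against 75.4, 88.0 and 75.1 CPM in control cells (log2 difference 0.46, standard error 0.12, adjusted p = 0.0976). The log2 ratio of ALDOC to ALDOA differed by -1.75 (NRF2 ΔC minus control), that of SLC2A1 to SLC2A3 by 0.83 and that of HK2 to HK1 by 0.52. None of these overlapped (two-sided exact permutation test, p = 0.1, adjusted 0.190 for each).

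With H2O2, the lines differed in 0 called members, against 5.62 % of 13580 genes (2 with an unadjusted p under 0.05 in edgeR's quasi-likelihood test, 1 called by DESeq2). For 2, ALDOC and ENO2, the groups did not overlap, against 27.7 % of all genes. ALDOC was at 22.9, 9.23 and 9.90 CPM against 36.6, 40.9 and 25.1 CPM (log2 difference -1.31, standard error 0.34, adjusted p = 0.0553), was called by DESeq2 (0.00153) and with no filter on low counts (0.0215), and was at -1.85 (0.000321) without NRF2 ΔC replicate 1. PFKFB4, at 9.25, 7.13 and 6.79 against 9.31, 7.38 and 6.08 CPM, did not differ beyond its spread (0.01, standard error 0.21).

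With NACET, ALDOC and PFKFB4 were lower in NRF2 ΔC than in control cells, 2 of 10 members against 3.86 % of 13627 genes, and 6 members did not overlap, against 24.5 % in either direction, of which 5 were lower and HK2 was higher in NRF2 ΔC cells (0.17). PFKFB4 was at 41.3, 33.6 and 38.2 against 66.0, 81.0 and 62.9 CPM (log2 difference -0.92, standard error 0.14, adjusted p = 0.00741, edgeR's quasi-likelihood test). That call was lost in 1 fit of all 18 samples (adjusted p = 0.0629) and without NRF2 ΔC replicate 2 (0.0557). ALDOC was at 25.3, 9.73 and 12.2 against 54.2, 64.8 and 41.8 CPM (-1.78, 0.35, adjusted p = 0.0257), a call lost without control replicate 1 (0.0758) or 2 (0.112) or NRF2 ΔC replicate 2 (0.102) or 3 (0.0840). PFKFB3 (-0.59, adjusted p = 0.0323) and ENO2 (-0.52, adjusted p = 0.0327) were under the fold limit, which PFKFB3 passed without control replicate 3 (0.0382) or NRF2 ΔC replicate 1 (0.0191).

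**Figure D5:**
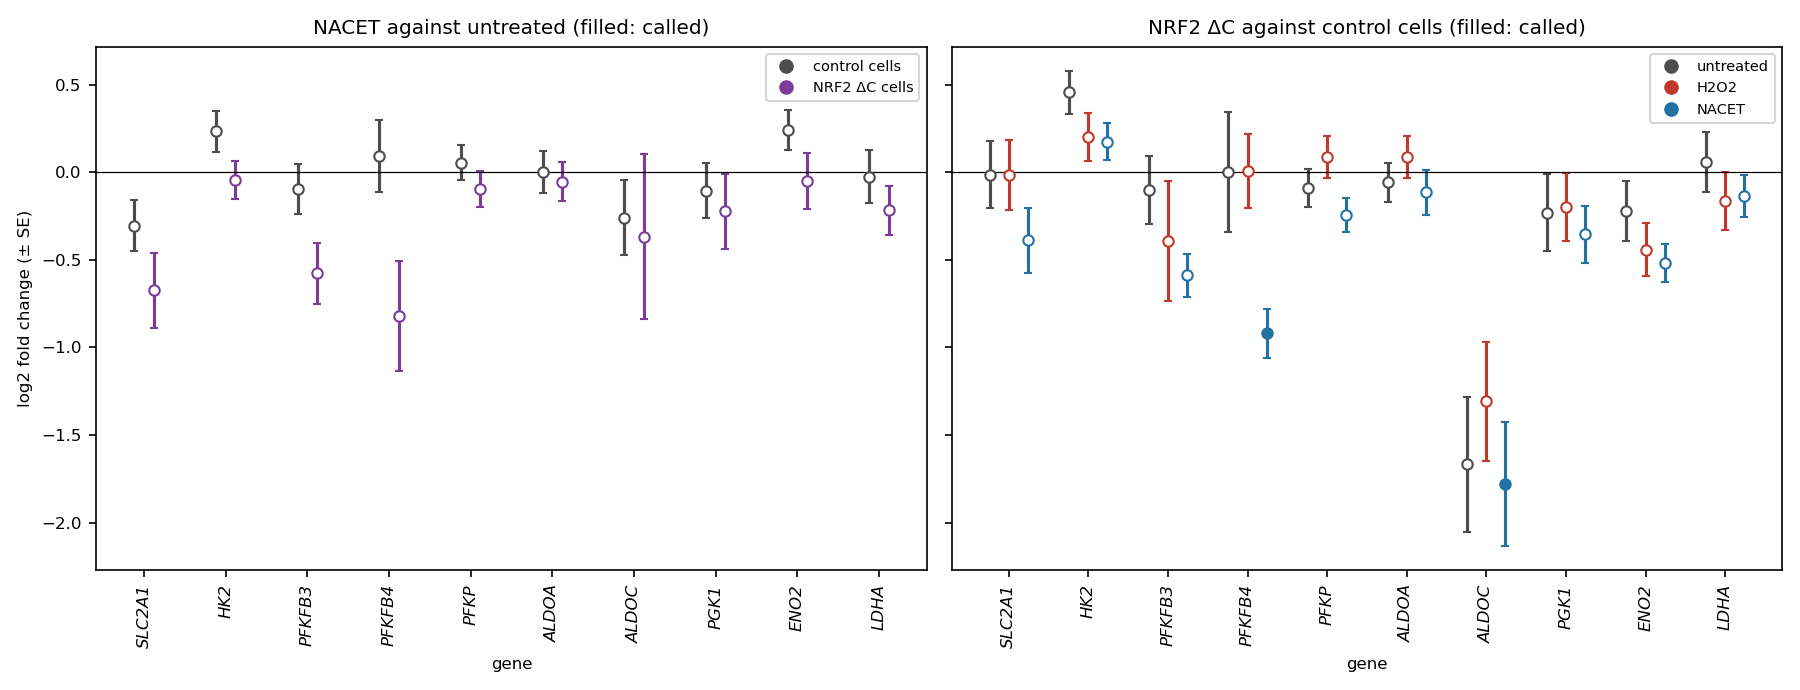
Fitted log2 fold changes of the members with NACET (left, by line) and between NRF2 ΔC and control cells (right, by treatment), with ± standard errors of fits on 3 + 3 samples. Filled points were called, which holds for PFKFB4 (-0.92) and ALDOC (-1.78) between the lines under NACET and for no member with NACET against untreated.

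Over the 18 samples, which share lines, treatments and replicate numbers, members varied together to different degrees. Pearson's r of log2 CPM was 0.96 between PFKFB4 and ENO2, 0.96 between PFKFB4 and LDHA and 0.95 between PFKFB3 and PFKFB4, while HK2 had r from -0.43 with ALDOC to 0.28 with LDHA. Among 12848 genes with at least 1 CPM, those most like PFKFB4 were FAM115C (0.98), BNIP3 (0.97) and ANKZF1 (0.96), and those most like ENO2 were RIMKLA (0.97), PPFIA4 (0.97) and PFKFB4 (0.96). ALDOC, whose levels did not overlap between the lines within any treatment, was followed most closely by CKMT2 (0.98), MAMDC2 (0.96) and EPDR1 (0.96). These values describe likeness over the 18 samples only.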

How the data were processed

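The authors prepared libraries from poly(A) RNA (TruSeq v2, single-end reads), mapped the reads to hg19 with TopHat 2.1.0 and counted them per gene with HTSeq 0.11.2 without regard to strand, and the deposited counts are raw reads per gene symbol. Tool versions come from the submitters' processing notes, and the gene annotation is not given in the sources used here. Reads mapping to several places (8.24 to 10.4 %) or to no gene (15.0 to 17.5 %) stood in 5 summary lines per file, which entered neither library sizes nor tests. Genes on opposite strands cannot be told apart in such counts.

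Each comparison was fitted on its 3 + 3 samples with edgeR 4.0.16 (R 4.3.3, TMM normalization, filterByExpr, quasi-likelihood F-test), with Benjamini-Hochberg adjustment over all genes tested. A change was called at adjusted p under 0.05 and a log2 size of at least 0.6, and an interaction, over 12 samples, at adjusted p under 0.05 alone. CPM values are TMM-normalized over the 18 libraries, and levels per kb use the canonical transcript length (GENCODE, GRCh37). Ratios are log2 of counts + 0.5. Samples were grouped by their labels. Within a line, same-numbered samples deviated together (correlations 0.4 to 0.799 over 12848 genes), so fits with the replicate number as a block are given where they change a call. They are also given for some members under the fold limit. Between lines they did not for replicate 2 (-0.292 to -0.0264). The labels do not say what the number marks. Alternatives were DESeq2 1.42.0, other normalizations, no filter, no fold limit, 1 fit of all 18 samples, and leaving out each sample. The fits were tested on simulated data.

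The members, lists and tests were chosen with earlier results of these data known. Genes named were the members, their isoenzymes, the single-form steps, called list genes taken from the 6 largest changes per list and comparison (at least 1 CPM), 3 genes most like each of the 3 members with the widest range, and NFE2L2. VEGFA, HIF1A, the marker genes, PDK2 and TXNIP with NACET, and some values under the call limits were named after their values were seen.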

Additional observations from a re-analysis of the deposited data

How the results depend on the processing

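Of 24 called member changes, 0 changed sign under any alternative and 13 were called under every one. Of 86 values not called, 25 changed sign under some alternative, none larger in size than 0.56 (ALDOC with H2O2 in NRF2 ΔC cells, 0.08 without untreated replicate 1). Members called with H2O2 numbered 7 in control cells (3 to 7 leaving out 1 sample) and 5 in NRF2 ΔC cells (4 to 6). With NACET they numbered 0 in control cells (0 to 0) and 0 in NRF2 ΔC cells (0 to 1, by DESeq2 1, with the replicate block 2). Between the lines they numbered 0 untreated (0 to 1, and 1 each by DESeq2, with library size only, with no filter, in 1 fit of all samples and with the replicate block), 0 with H2O2 (0 to 1, and 1 each by DESeq2, with no filter and with the replicate block) and 2 with NACET (0 to 3, in 1 fit of all samples 1, with no fold limit 4). H2O2 against NACET gave 6 in control (3 to 7, by DESeq2 7, and without SLC2A1 and PGK1 in 1 fit of all samples) and 4 in NRF2 ΔC cells (3 to 5). The NACET interaction gave 0, and 3 with the replicate block within each line. Over all genes the replicate block called 1400 against 867 with H2O2 and 1026 against 376 with NACET in control cells, and 2538 against 1329 and 1195 against 188 in NRF2 ΔC cells. The block changed no member's call other than those given here and in the report. The share of gene reads in the members differed by -0.0113 percentage points between NACET-treated and untreated control cells, and by -0.0394 to 0.0316 leaving out 1 sample, with a change of sign without NACET replicate 1 (0.00192) and without untreated replicate 2 (0.0316). The cause was not tested. None of 280 ratio values moved by more than 1 SD. Library-size-only scaling was added after seeing the data, and the scalings moved the median of all genes by under 0.1 on the log2 scale. With 3 samples a group, differences of the size of their standard errors were not detectable, and PFKFB4 with H2O2 rests on the fewest reads (124 in control replicate 3).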

Other observations

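In the glycogen and hexose phosphate branches, most of the 12 tested genes were not called with H2O2. In control cells 2 fell and 1 rose (3.37 and 2.96 % of all genes) and in the clone 3 fell and 1 rose (5.55 and 4.26 %), with list medians of -0.07 and -0.10. GYS1, muscle-type glycogen synthase, had log2 fold changes of -1.15 (control) and -0.93 (NRF2 ΔC), and PGM1, which links glycogen to glucose 6-phosphate, had -0.89 in both. GPD2, the mitochondrial glycerol phosphate dehydrogenase, was called in the clone (-0.69) and had -0.05 in control cells. PCK2, the mitochondrial enzyme that makes phosphoenolpyruvate and a target of the amino acid response, rose in both (1.89 and 2.67). C12orf5 (TIGAR) and PCK2 were thus the only genes of the glycolysis, lactate and glycogen lists called higher in both lines with edgeR's quasi-likelihood test.

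With NACET, PDK2, another kinase of pyruvate dehydrogenase, fell in both lines (log2 fold changes -0.83 and -0.80), while no member was called. PDK2 also fell with H2O2 in control cells (-0.60, adjusted p = 0.0402, edgeR's quasi-likelihood test). Its H2O2 value in NRF2 ΔC cells was -0.57 and not called (adjusted p = 0.0523). TXNIP, an inhibitor of glucose uptake that responds to glucose and redox state, fell in control cells (-1.23) and had a value of like size in NRF2 ΔC cells (-1.22) that was not called (adjusted p = 0.16, edgeR's quasi-likelihood test). NDRG1 fell in NRF2 ΔC cells (-1.11, adjusted p = 0.032) and had -0.57 in control cells (adjusted p = 0.0423, under the fold limit).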
